A study of Mus musculus with 6 samples.

Results

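The 42 genes of class snoRNA were taken from a table of small RNA sequencing of mouse hearts, which lists 10065 genes by Ensembl identifier, and every row of that class was a member. The libraries came from whole hearts of 3 ADAR2-/- (Adarb1-/-, Gria2R/R) and 3 wild type female siblings on the SV129 background at postnatal day 6. By the study's methods both genotypes carried the pre-edited Gria2 allele (Gria2R/R), which rescues mice without ADAR2 from early death, while the labels give it in the genotype of the ADAR2_KO samples alone. The value used was the authors' mean normalized count of each gene, 1 value over all samples, so the members were compared with each other and with other RNA classes, and no comparison between the genotypes was made. No value per heart was used, and the spread between animals is not known. The libraries were of small RNA, and the read lengths in the study's methods are shorter than the annotated length of every member. A value therefore counts reads from part of an RNA, and its relation to the amount of whole snoRNA was not tested. For depth, the study's methods give a lower limit on reads per sample and no total for each library. A mean of 2 therefore stands for very few reads in an average library, and the order of neighbouring members at such levels has no error to be judged by.

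Small nucleolar RNAs (snoRNAs) are stable nuclear RNAs that direct the maturation of ribosomal RNA. Box C/D snoRNAs carry the box C and box D motifs near their ends, bind the methyltransferase fibrillarin and guide ribose methylation, whereas box H/ACA snoRNAs bind dyskerin and guide the conversion of uridine to pseudouridine. A few box C/D RNAs, among them U3 and U14, are needed for the cleavage of the ribosomal RNA precursor. Most mammalian snoRNAs are cut out of the introns of host genes, many of which encode ribosomal proteins or are non-coding. ADAR2 is an adenosine deaminase that edits double-stranded RNA and resides in the nucleolus.

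By name, 16 of the 42 members were box C/D genes (Snord), 8 were U3 genes (Rnu3b1 to Rnu3b4, each annotated as a pair of overlapping genes) and 18 were unnamed genes with a Gm symbol. None of the members had a box H/ACA name (Snora) or a Cajal body name (Scarna). In the GENCODE M21 annotation (GRCm38), which lists 1507 snoRNA genes, the members made up 2.79% of all of them, 16 of 98 Snord genes (16.3%), 8 of 10 Rnu3 genes and 18 of 1342 Gm genes (1.34%). Of the 42 Snora genes, the 2 Scarna genes and the 51 genes of the annotated type scaRNA, 0 were members. The 42 genes lay at 36 separate positions on 13 chromosomes, 19 of these positions on chromosomes 9 and 11. They held 30 distinct values, since 16 members had exactly the value of another member.

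The RNA of each member was read from the GENCODE M21 transcripts by its identifier and searched on the transcribed strand for box C (NTGATGA, N being any base) upstream of a box D (CTGA) that starts within the last 15 bases. Both boxes were found in 32 of the 42 members, against 342 of the 1507 annotated snoRNA genes (22.7%). With 1 mismatch allowed in box C they were found in 37 members (88.1%), against 427 annotated genes (28.3%), and this looser rule defines the box C/D class in what follows. The pair of ANANNA starting in the central of 3 equal parts of the RNA and ACA starting within the last 8 bases, the mark of the H/ACA class, was found in 3 further members (7.14%), against 581 annotated genes (38.6%). With 1 sequence per distinct value the counts were 25 and 3 of 30. The motifs are short and can occur in any RNA, and a match describes letters and not a working box. Gm22519 and Gm22493 held neither pair.

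A choice of the box C/D members, those with the higher levels or with a neighbour or copy compared in the results, is shown 5′ to 3′ with box C and the last box D in capitals. Box C of Snord22, Snord34, Snord42a, Gm24494 and Gm24016 has 1 mismatch to the motif, and the other members of this class match it fully.
Snord14c: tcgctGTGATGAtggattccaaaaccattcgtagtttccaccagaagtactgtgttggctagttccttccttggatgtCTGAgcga
Snord14d: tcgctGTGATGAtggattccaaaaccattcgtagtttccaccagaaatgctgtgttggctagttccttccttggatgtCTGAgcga
Snord22: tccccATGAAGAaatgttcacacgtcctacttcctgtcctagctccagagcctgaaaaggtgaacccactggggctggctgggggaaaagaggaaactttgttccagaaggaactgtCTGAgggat
Snord33: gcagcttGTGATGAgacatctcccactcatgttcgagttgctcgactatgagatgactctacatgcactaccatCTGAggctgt
Snord32a: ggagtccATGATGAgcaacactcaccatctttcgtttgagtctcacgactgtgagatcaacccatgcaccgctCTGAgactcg
Snord34: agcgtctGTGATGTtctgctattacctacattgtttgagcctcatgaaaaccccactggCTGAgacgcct
Snord104: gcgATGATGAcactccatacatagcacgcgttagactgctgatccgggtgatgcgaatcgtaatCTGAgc
Snord49a: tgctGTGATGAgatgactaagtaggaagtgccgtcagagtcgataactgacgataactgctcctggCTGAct
Snord49b: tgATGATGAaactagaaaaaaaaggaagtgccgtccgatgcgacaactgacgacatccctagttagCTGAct
Snord50a: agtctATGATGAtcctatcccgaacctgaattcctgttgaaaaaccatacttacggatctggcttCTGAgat
Gm22455: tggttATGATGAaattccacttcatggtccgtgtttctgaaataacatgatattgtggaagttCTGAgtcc

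The 3 members with the H/ACA pair are shown with each ANANNA of the central part and the last ACA in capitals, because Gm25291 among them had the highest value of all members.
Gm25291: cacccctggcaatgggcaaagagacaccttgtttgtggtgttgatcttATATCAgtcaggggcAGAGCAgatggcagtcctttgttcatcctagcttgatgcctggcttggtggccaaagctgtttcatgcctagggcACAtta
Gm23946: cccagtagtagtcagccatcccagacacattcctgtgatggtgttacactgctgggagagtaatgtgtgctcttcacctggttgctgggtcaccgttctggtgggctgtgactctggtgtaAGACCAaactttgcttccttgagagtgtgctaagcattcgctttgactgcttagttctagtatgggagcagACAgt
Gm23925: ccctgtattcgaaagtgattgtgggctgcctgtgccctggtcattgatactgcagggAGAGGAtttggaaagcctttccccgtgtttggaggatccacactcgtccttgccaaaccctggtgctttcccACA

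By counts of short reads, not adjusted for gene length, the typical snoRNA gene lay slightly below the typical gene of the table. Far above the rest stood 1 member. The median of the authors' mean normalized counts was 6.00 over the 42 members (from 1.68 to 132.5), beside 6.65 over all 10065 genes, 7.64 over 134 miRNA genes and 8.31 over 61 snRNA genes. With each distinct value counted once the median of the snoRNA genes was 4.22 (30 values). A mean of at least 10 was reached by 16 of the 42 members (38.1%), against 36.0% of all genes, but by 8 of the 30 distinct values (26.7%), because 10 of the 16 rows, the Rnu3b genes and the pair of Gm24826 genes, hold only 2 values. The members held 0.216% of the summed means of the table, whereas miRNA genes held 2.55% and snRNA genes 0.656%. Gm25291 was the 1 member above 20, and it alone made up 28.6% of the members' sum. At or below 19.95 lay 97.6% of the members and 96.7% of their distinct values, against 81.3% of all genes, so high values were rarer among the members.

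**Figure D1:**
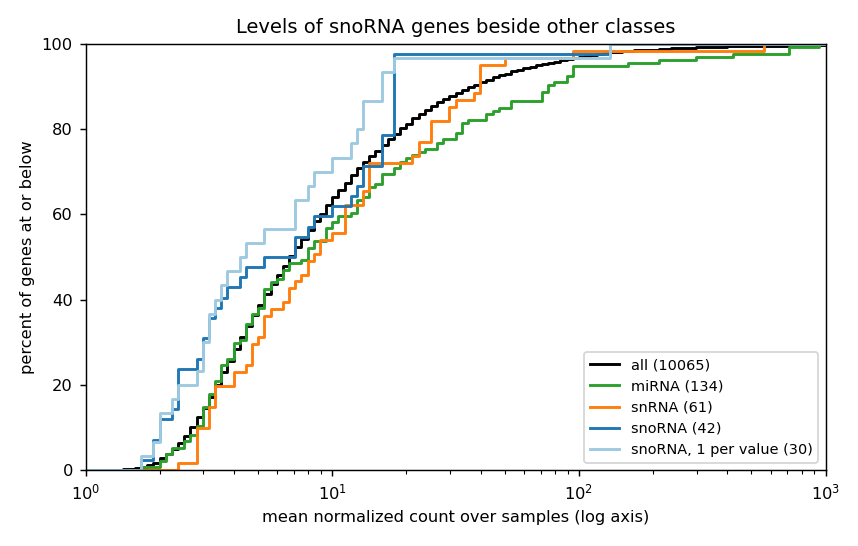
Percent of genes at or below each mean normalized count (log axis) for all 10065 genes, 134 miRNA genes, 61 snRNA genes and 42 snoRNA genes, the latter also with 1 gene per distinct value. Below about 5 the snoRNA curves lie above the others, and their medians are 6.00 (all rows) and 4.22 (distinct values). At 17.8 both snoRNA curves also lie above the others, at 97.6% (all rows) and 96.7% (distinct values), against 79.0% of all genes.

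Gm25291 (ENSMUSG00000084744, GRCm38 chr11:51737779-51737922, minus strand) lies in an intron of Sec24a, which encodes a coat protein of transport vesicles. Its mean was 132.5, which was 7.77 times that of the next value, and it ranked 190 of all genes. Per 100 bases its level was 92.0, while the distinct values of the other members ran from 0.837 to 18.6. Its RNA of 144 bases holds the H/ACA pair and no box D within the last 15 bases.

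**Figure D2:**
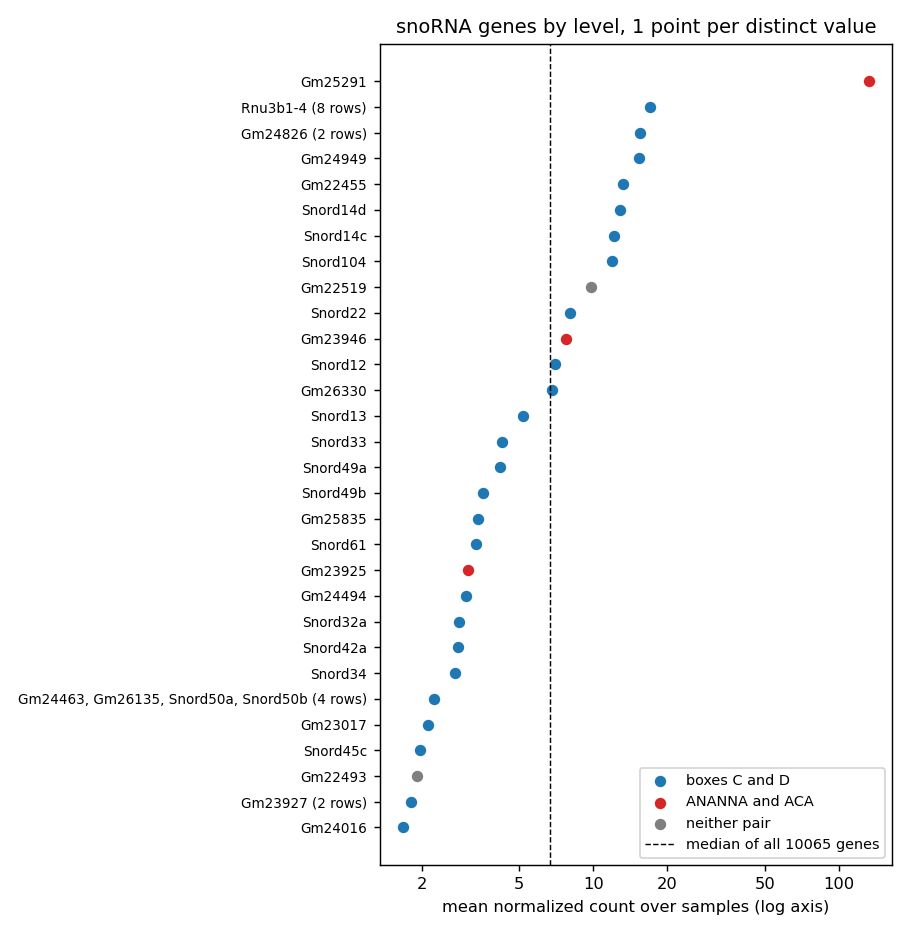
Mean normalized count (log axis) of the snoRNA genes, 1 point per distinct value, coloured by the motif pair found in the sequence. Gm25291 stands at 132.5, the U3 genes Rnu3b1 to Rnu3b4 follow at 17.1, and the dashed line marks the median of all genes (6.65).

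Of the RNAs needed to cut the ribosomal RNA precursor, U3 had the highest value. Each of the 8 Rnu3b rows had a mean of 17.1, identical in all digits. These rows lie at 4 positions of chromosome 11 within 28347 bases in introns of Tex14 (the first at chr11:87443237-87443451), and the 4 copies are identical over the 215 bases compared. Among 3 further U3 copies with Gm symbols, Gm24826 (chr1:39519533-39519747) had a mean of 15.5 and Gm24949 (chr11:96032678-96032892) one of 15.3. Gm23927, the last of these (chr19:4078298-4078512), had a mean of 1.81, the lowest value but 1 of all members. The levels of the U3 copies thus fell into a group from 15.3 to 17.1 and a single copy far below it.

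The 4 U3 sequences are printed over 215 bases because these close copies differed so much in level. In Rnu3b1 the capitals mark boxes C and D, and in the other sequences they mark the bases that differ from Rnu3b1.
Rnu3b1: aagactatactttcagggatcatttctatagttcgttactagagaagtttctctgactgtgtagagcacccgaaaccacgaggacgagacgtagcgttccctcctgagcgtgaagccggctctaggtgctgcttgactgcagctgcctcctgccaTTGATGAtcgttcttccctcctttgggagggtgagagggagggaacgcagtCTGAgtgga
Gm24826: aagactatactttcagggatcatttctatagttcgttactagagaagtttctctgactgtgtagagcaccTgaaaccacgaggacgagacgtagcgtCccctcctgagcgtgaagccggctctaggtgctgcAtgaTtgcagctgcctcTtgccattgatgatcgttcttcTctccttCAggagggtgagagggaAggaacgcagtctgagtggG
Gm24949: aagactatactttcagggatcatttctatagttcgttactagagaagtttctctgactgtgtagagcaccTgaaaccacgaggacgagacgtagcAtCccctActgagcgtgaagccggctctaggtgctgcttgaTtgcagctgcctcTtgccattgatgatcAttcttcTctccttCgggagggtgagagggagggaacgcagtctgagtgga
Gm23927: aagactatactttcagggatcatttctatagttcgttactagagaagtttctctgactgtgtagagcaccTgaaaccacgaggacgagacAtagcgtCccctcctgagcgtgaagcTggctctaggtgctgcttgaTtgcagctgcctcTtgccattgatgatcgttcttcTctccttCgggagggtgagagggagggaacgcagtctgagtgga

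Gm23927 differs from Rnu3b1 at 8 of 215 bases (96.3% identity), Gm24949 at 9 (95.8%) and Gm24826 at 10 (95.3%), so the copy with the low level is not the one with the most differences. Counted from the 5′ end, C71T is the first difference in each of the 3, which leaves the first 70 bases common to every copy. Differences that set Gm23927 apart from the other printed copies are G91A and C117T. Cut into windows of 30 bases, 41 of its 186 windows occur in each of the other printed sequences and 71 in none of them. For Rnu3b1 these counts are 41 and 129. Windows were matched exactly, so the counts do not show how many reads could be assigned to a single copy if mismatches are allowed. The labels name mm9 as the build, and the sequences are those of GRCm38, so copies of the older build were not compared.

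**Figure D3:**
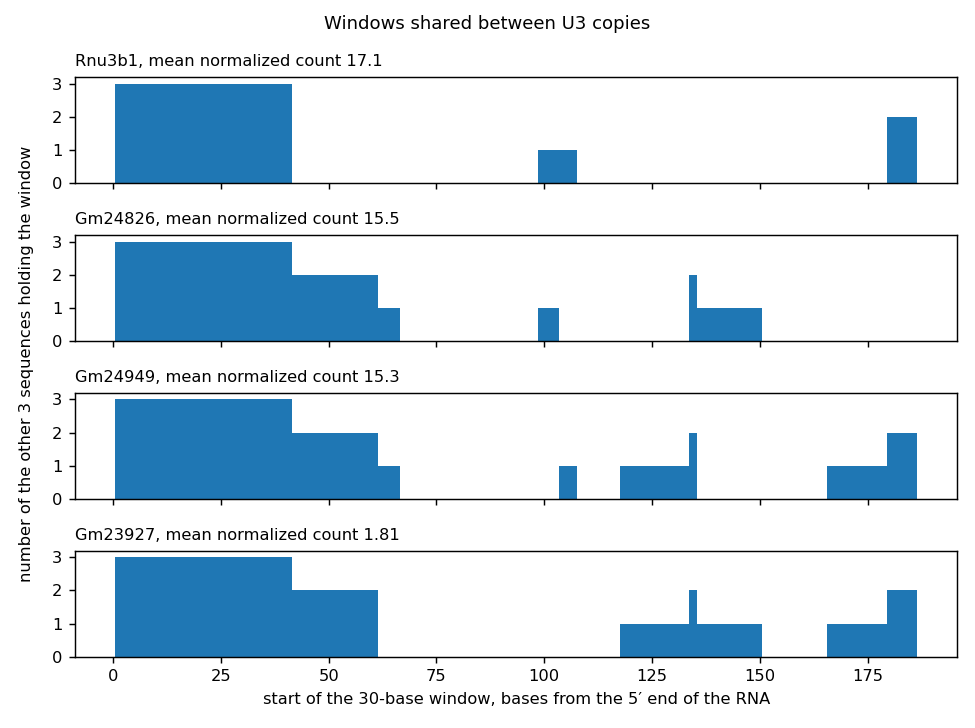
For each U3 sequence, the number of the other 3 sequences (y axis) that hold the 30-base window starting at each base from the 5′ end (x axis). The first 41 windows are shared by every copy, although the mean normalized count is 17.1, 15.5, 15.3 and 1.81 from top to bottom.

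The remaining members of the processing group had lower means than the Rnu3b genes, but the U14 genes had higher levels per length than a single Rnu3b gene. The latter is 1 of 4 identical positions, whose means sum to 68.2, and how reads with several matches were counted is not given. The order of U3 and U14 per length therefore depends on that rule. Snord14d and Snord14c, the U14 genes in Hspa8 (a heat shock protein of the cytosol; chr9:40803995-40804080 and chr9:40803583-40803668), had means of 12.9 and 12.2, or 14.97 and 14.1 per 100 bases, beside 7.93 for Rnu3b1. Their sequences differ at G47A and A49G, with Snord14c as the reference, and share the first 46 of 86 bases. Snord22 (U22), which is required for the small subunit RNA and lies in Snhg1 (chr19:8725866-8725991), had a mean of 8.04 (6.38 per 100 bases). Snord13 (U13), which acts on the same RNA and has no host gene in the annotation, had a mean of 5.20 (4.997 per 100 bases).

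Guides of ribose methylation in the large subunit RNA with a Snord name ran from 2.25 to 11.9. The unnamed members were not sorted by target. Snord104 (chr11:106500993-106501062) had a mean of 11.9, or 16.9 per 100 bases, a level per length exceeded among the members by Gm25291 and Gm22455 alone. Snord12, in the non-coding host Zfas1, followed with 6.96 (7.74 per 100 bases). Snord49a and Snord49b, neighbours in 2410006H16Rik within 443 bases, had means of 4.18 and 3.55. Snord34 had 2.73, and Snord50a and Snord50b, both in Snhg5, had 2.25 each.

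Guides of the small subunit RNA with a Snord name lay between 1.98 and 4.25, and Snord32a among them also has a target in the large subunit RNA. Snord33 had a mean of 4.25, Snord61 one of 3.32, Snord32a one of 2.85, Snord42a one of 2.83 and Snord45c one of 1.98. Per 100 bases these were 5.06, 4.67, 3.43, 4.35 and 2.47, so the order of Snord32a and Snord42a turns with length. Snord32a, Snord33 and Snord34 lie in Rpl13a on chromosome 7 within 864 bases (Snord33 at chr7:45126864-45126947), a group known for its part in the response of cells to excess fatty acids. Snord33 overlaps Mir5121, a miRNA gene with a mean of 3.82, and reads in the overlap cannot be told apart. Gm24494 and Snord45c lie within 595 bases in Rabggtb, and their means were 3.03 and 1.98.

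The Snord50 copies form the second family with shared values. Snord50a, Snord50b, Gm26135 and Gm24463 lie at 4 positions of chromosome 9 and had the same mean of 2.25, and Gm23017 had one of 2.12. Gm24463 has the sequence of Snord50a, and Snord50b and Gm26135 carry C50A. Gm23017 carries A43G. In the following lines the capital marks the base that differs from Snord50a.
Snord50b: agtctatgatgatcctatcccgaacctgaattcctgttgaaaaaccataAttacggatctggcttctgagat
Gm23017: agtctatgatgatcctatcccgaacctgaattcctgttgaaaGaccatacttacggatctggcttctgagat

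The values of these copies did not separate the sequences with C50A from those without it. Of the 43 windows of 30 bases, Snord50b shares 20 with Snord50a, and Gm23017 shares 13. Shared values were not confined to the members, since 157 values were held by more than 1 gene (336 of all 10065 genes). They were more frequent among the members, of which 17 of 42 had the value of another gene. Those of the Rnu3b, Gm24826 and Gm23927 genes belonged to overlapping pairs or identical copies. How reads with several matches were counted is not given in the sources used here.

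Among the unnamed members with box C and box D, Gm22455 in Rpl4 had a mean of 13.2 and the second level per length (18.6 per 100 bases). Gm25835 in Eif4a1 had a mean of 3.39, and Gm24016 in Rps20 one of 1.68, the lowest of all members. Of the remaining members with the H/ACA pair, Gm23946 in Timm23 had a mean of 7.77 and Gm23925 in Snhg17 one of 3.10, which a second gene of the same symbol, listed as lincRNA, held as well. Gm22519, at 9.76, and Gm22493, at 1.91, held neither pair. The median log2 mean of the 37 C/D members was 0.58 lower than that of the 3 H/ACA members (a difference of -0.58), while per 100 bases it was higher by 0.56. The direction therefore depends on length and rests on 3 genes.

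Host genes were looked up by position in GENCODE M21. A longer gene on the same strand spanned 33 of the 42 members (78.6%), or 29 of the 36 positions. The same share over all annotated snoRNA genes was not computed, so 78.6% cannot be called particular to the members. Of these members 18 lay in an intron of every annotated host transcript, among them the 8 Rnu3b rows. The hosts with a value in the table numbered 18, of which 12 encode proteins, 5 of them ribosomal proteins (Rpl4 and Rpl13a among them), and 6 are non-coding. In all 31 pairs of a member and a host the host had the higher mean. The same was true of the 1 gene on the opposite strand with a value, Tlcd1, whose mean was 3.23 where Snord42a had 2.83.

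The members, summed over their positions in a host, made up a median of 76.2% of the host's mean, from 23.4% to 97.6%, and over 50% of it in 16 of 18 hosts. For Sec24a, with a mean of 135.7, Gm25291 made up 97.6%, and the remainder was 3.19. For Tex14, a gene of germ cells with a mean of 79.9, the 4 U3 positions summed to 68.2, or 85.4%. For Snhg5, with a mean of 4.62, Snord50a and Snord50b summed to 4.50, or 97.5%. At the lower end stood Eif4a1, a translation initiation factor, with 35.7%, and Rpl4, with 23.4% of a mean of 56.5.

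Per length the difference was wider. After subtraction of the members, the remainder of each host ran from 0.0283 to 8.29 per kb of its span, while the members ran from 23.5 to 920.0 per kb. The members were the denser part in 18 of 18 hosts, by a median of 215-fold, and the smallest ratio was 20.6-fold. This subtraction takes each read on a member as counted on its host as well, which the sources used here do not state. The remainder was divided by the rest of the host's span, introns included. Members were only those snoRNA genes that the table lists. The ratios depend on both choices.

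**Figure D4:**
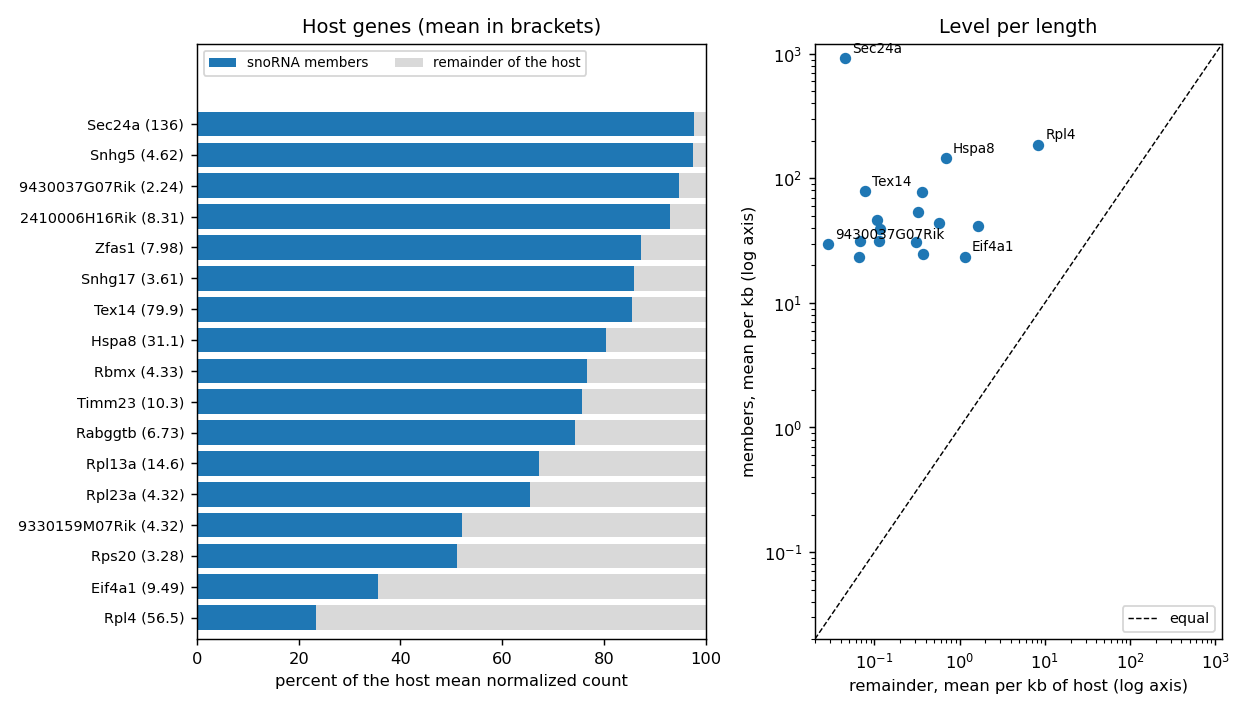
For 17 of the 18 hosts, left, percent of each host gene's mean normalized count that equals the sum of its snoRNA members (blue) and the remainder (grey), with the host mean in brackets. Right, level of the members against the remainder, both per kb on log axes, where all hosts drawn lie above the dashed line of equal levels.

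Of 20 listed genes of the snoRNA particles 6 had a value, beside 38.2% of the 21951 protein-coding genes of the annotation, and 1 of the 6, Ruvbl1, an assembly ATPase, had a mean of at least 10 (21.8). Fbl, which encodes the methyltransferase of box C/D particles, had a mean of 5.23, and the assembly factors Shq1, Znhit6 and Nufip1 had means of 6.87, 3.63 and 2.72. Wrap53, which brings RNAs to the Cajal body, had 2.70. Among the 4 core proteins of each class, 1 gene had a value in the box C/D class (Fbl) and 0 in the H/ACA class.

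Marker genes were listed to check the tissue, but their values did not set heart apart. Of 6 cardiomyocyte genes 5 had a value (from 3.99 for Myl2 to 424.5 for Myh6), but Mir208a, which lies in Myh6, equalled 97.3% of the latter. The endothelial genes ran from 3.70 to 11.6, those of fibroblasts from 5.40 to 44.8, those of neurons from 6.03 to 114.0, and the red blood cell genes from 3.21 to 4.71. The neuron gene Syt1, at 114.0, exceeded every listed cardiomyocyte gene but Myh6, the next being Ryr2 at 63.6. Nppa, a cardiomyocyte gene, had no value. These lists therefore do not establish the tissue. Adarb1, which encodes ADAR2, had a mean of 16.6 over both genotypes, so the pooled value does not check the labels.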

How the data were processed

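Small RNA was sequenced from hearts of 3 mice per genotype. By the study's methods, the authors removed adaptors with Cutadapt, mapped the reads with Bowtie and used DESeq, and the submitters' processing notes name the build mm9. The methods also describe mapping to mature microRNA sequences with NextGenMap. Annotation, strand and counting rules are not given in the sources used here. The signal used is the authors' deposited mean normalized count, which DESeq defines as read counts divided by a size factor per library and averaged over samples. The other 6 value columns hold the authors' own genotype comparison (fold changes before and after shrinkage, standard error, statistic and p-values) and were not used, so there is no test between genotypes. The methods give a lower limit on reads per sample, and the total of each library is unknown.

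Genes were joined by identifier to GENCODE M21 (GRCm38), where 10005 of 10065 were found. Hosts were longer genes spanning a member, and all coordinates are GRCm38. Levels per length used the annotated span. Named genes were all members with a Snord name, unnamed members with a mean of at least 10 or with a value equal to, or a position overlapping, another gene of the table (a host included), the 5 highest and 5 lowest, their hosts, and listed particle genes. Gm22519, Mir5121, Mir208a, Tlcd1 and the further snoRNA genes of the hosts were named after values were seen. Members, lists and motif windows were chosen with earlier results of these data known. On simulated data the motif step recovered 200 of 200 classes and the host step 100 of 100 pairs. The motifs were planted in sequence of G and T alone and searched with no mismatch allowed. This run therefore cannot show how often the motifs, or the looser box C, match by accident in real RNA. Python 3.11.15, pandas 2.3.3, numpy 2.4.6, scipy 1.17.1 and matplotlib 3.10.9 were used. A host gene and a sequence are not reported here.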

Additional observations from a re-analysis of the deposited data

How the results depend on the processing

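No paired analysis was possible because the mean used is 1 value over all samples, and for the same reason no replicate was left out and no pseudocount was tried. The median of 6.00 was 17.1 among members with a mean of at least 10, and it moved less with identical values once (4.22), Snord names only (3.87) and the annotated class (6.00). The share of the summed mean, 0.216%, was 0.154% without Gm25291, 3.43% of the short non-coding classes, and 0.149% with identical values once. The count of 16 members with a mean of at least 10 was 22 at a minimum of 5, 1 at a minimum of 20, and 8 with identical values once. No Snora gene was a member, so the C/D and H/ACA classes could be compared by motif alone. The log2 difference of -0.58 was 0.56 per 100 bases, -0.062 without the highest member of each class and -0.90 with identical values once; the cause was not tested. Box C and D were found in 32 members with no mismatch and 37 with 1 mismatch. The share with a host was 78.6% on either strand. The alternatives with identical values once were chosen after seeing the data, apart from that of the median.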

Other observations

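The hosts also hold snoRNA genes that are no members. In 10 of the 18 hosts GENCODE M21 lists 19 further snoRNA genes, among them Snord35a in Rpl13a, Snord14e in Hspa8, Snord65 in 2410006H16Rik, and Snord45b in Rabggtb. Their levels were not analysed here. The remainder was 4.81 in Rpl13a, 6.11 in Hspa8, 0.578 in 2410006H16Rik and 1.72 in Rabggtb. Snhg5 and 9430037G07Rik, which hold Snord50 copies, had the same remainder of 0.116. This lies below the lowest mean of any gene (1.09) and stands for very few reads. The 97.5% of Snhg5 and the lowest remainder per kb (0.0283, 9430037G07Rik) rest on it. The remainder of 9330159M07Rik, the host of the copy Gm26135, was 2.07.

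A host above its inner gene was not particular to snoRNA genes. Over all genes under 300 bases that lie in a longer gene of another class on the same strand, the outer gene had the lower mean in 1 of 123 pairs and an equal mean in 4. On the opposite strand these counts were 0 and 2 of 60 pairs. The inner gene had a median of 41.4% of the outer gene's mean in the 31 snoRNA pairs, 49.4% in 75 miRNA pairs and 55.6% in 12 snRNA pairs, where members of 1 host count as separate pairs.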
